A study of Mus musculus with 20 samples.

Results

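The enzymes that attach ubiquitin to proteins and take it off again were followed through a heat shock series in mouse fibroblasts. Members were taken by symbol from the probes listed with a single gene: Uba and a digit (activating enzymes, E1), Ube2 and a letter (conjugating enzymes, E2), Cul and a digit (cullins), and Usp, Uchl and Otu (the deubiquitinase families USP, UCH and OTU). Ube2c was left out. Of 10843 genes listed on the arrays, 85 met this rule, and 84 of them passed the filter on missing values, among 10625 genes measured in all. Ube2d2b was the member not measured. The 84 were 1 E1, 27 E2s, 8 cullins, 37 USPs, 3 UCHs and 8 OTUs. The symbol rule also takes in Ube2d-ps, which the annotation lists as a long non-coding RNA, and Ube2cbp, which is not an E2 enzyme itself.

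The cells carried heat shock factor 1 (HSF1 +/+, called WT here) or lacked it (HSF1 -/-, called KO here). HSF1 is the transcription factor that induces chaperone genes in the heat. Each genotype had 3 arrays at 0 h of heat shock (unheated) and 1 array at each of 0.5, 1, 2, 3, 4, 6 and 8 h. These were grouped as 0 h (n = 3), early (0.5, 1 and 2 h, n = 3) and late (3, 4, 6 and 8 h, n = 4) in each genotype, so a window pools different times rather than replicates. The labels do not say how the lines were made, whether the 0 h arrays were separate cultures, or whether cells stayed hot until harvest. P-values therefore measure only the spread between these arrays.

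Ubiquitin is activated by an E1, passed to an E2 and placed on a protein with the help of an E3 ligase. Cullins are the scaffolds of the largest E3 family, and many of them are activated when the ubiquitin-like protein NEDD8 is attached. Deubiquitinases reverse the reaction, trim chains and return free ubiquitin. After heat shock, damaged proteins are heavily ubiquitinated, which draws on the pool of free ubiquitin in the cell.

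HSF1 binds repeats of the 5-base unit nGAAn in alternating orientation, so the promoters of the members were searched for these letters. RefSeq windows (GRCm38.p6) of 250 bases before and 50 after the transcription start were found for 68 of the 84 measured members. A pair of facing units was written as GAANNTTC or TTCNNGAA, and 3 units in a row as GAANNTTCNNGAA or TTCNNGAANNTTC, which contain the shorter motifs. The shorter motifs read the same on both strands. A pair of units was found in 3 of these 68 members (4.41%), against 17.0% of all 27025 genes with a window. Of the 18 members with a window that passed the test in any comparison below, 0 held one. The 3-unit motif was found in 1 member, Uchl1, and in 0.662% of all genes. For comparison, Hspa1a and Hspa1b, classical targets of HSF1, each held 1 pair of units, 104 bases before the start, and Dnajb1, another such target, held 0 in the 250 bases before either of its starts. A missing match says only that these exact letters are not in the window.

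The 250 bases before the start are printed for Usp46 and Otud1, which changed in both genotypes, for Usp11, which had the lowest p of any member, and for Uchl1, whose 3-unit motif is in capitals. Each reads 5′ to 3′ on the strand of the gene.
Usp46, chr5:74068412-74068661, minus strand: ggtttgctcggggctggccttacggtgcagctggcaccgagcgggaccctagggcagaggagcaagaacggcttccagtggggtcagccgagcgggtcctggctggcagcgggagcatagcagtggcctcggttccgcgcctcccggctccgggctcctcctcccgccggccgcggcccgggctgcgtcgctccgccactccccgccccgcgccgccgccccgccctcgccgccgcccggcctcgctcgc
Otud1, chr2:19657481-19657730, plus strand: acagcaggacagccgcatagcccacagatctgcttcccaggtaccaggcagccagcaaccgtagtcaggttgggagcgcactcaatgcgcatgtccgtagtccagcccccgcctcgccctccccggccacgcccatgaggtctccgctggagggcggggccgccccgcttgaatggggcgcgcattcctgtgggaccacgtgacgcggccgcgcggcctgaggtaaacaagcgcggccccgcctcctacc
Usp11, chrX:20703659-20703908, plus strand: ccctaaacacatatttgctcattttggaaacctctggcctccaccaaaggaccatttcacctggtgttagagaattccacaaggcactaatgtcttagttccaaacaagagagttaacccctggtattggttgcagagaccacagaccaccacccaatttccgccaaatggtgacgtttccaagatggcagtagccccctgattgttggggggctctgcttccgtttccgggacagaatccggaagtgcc
Uchl1, chr5:66675871-66676120, plus strand: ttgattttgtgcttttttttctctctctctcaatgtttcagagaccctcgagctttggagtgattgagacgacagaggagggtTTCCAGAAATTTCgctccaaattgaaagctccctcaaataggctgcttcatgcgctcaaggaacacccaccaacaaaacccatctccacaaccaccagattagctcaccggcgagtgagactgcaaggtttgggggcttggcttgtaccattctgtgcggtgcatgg
The first of these windows was 77.6% G and C, the second 69.2% and the third 50%. The motif of Uchl1 begins 167 bases before the start.

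Deposited values are log ratios of each sample (Cy5) to a common pool of heated and unheated fibroblast mRNA (Cy3), treated as log2. Here each array was centred on its median, and the value of a gene is the mean of its single-gene probes. A value is thus a level relative to the pool, not an amount, and levels of different genes cannot be compared. Errors beside differences are SEs of the moderated limma fit, and a call means an adjusted p (limma, Benjamini-Hochberg over 10625 genes) under 0.05. Arrays held 39037 to 42220 values each, and the number of arrays limits the precision.

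Hsf1 was not analysed here because no probe was listed with it alone, so the labels were read against its targets. All 7 heat shock genes checked rose late in WT cells, Hspa1a by a log2 of 5.83 ± 0.75, and 0 of 7 changed late in KO cells, where Hspa1a differed by -0.01. Fibroblast identity could not be read as a level, because the pool came from the same kind of cells. Mean levels of markers also differed between groups. The mean of 9 fibroblast markers ran from 0.05 to 0.40 at 0 h and -0.37 to 0.02 late in WT arrays, and from 0.17 to 0.29 and -0.33 to 0.00 in KO arrays. Of these, 1 fell late in each genotype (11.1%, against 7.27% of all genes called in WT and 10.7% in KO cells). Between genotypes, 2 were higher and 1 lower in KO cells at 0 h (33.3%, against 6.64% of all genes). In heated arrays 2 were higher and 2 lower (44.4%, against 10.3%). The mean of 6 macrophage markers ran from -0.09 to 0.35 over the 0 h and late WT arrays and from -0.26 to -0.06 over those of KO cells, and Cd68 was lower in KO cells at 0 h (-0.83 ± 0.22). Cd68 was the 1 macrophage marker of 6 called at 0 h (16.7%, against 6.64% of all genes). In heated arrays 2 of the 6 were lower in KO cells and 0 higher (33.3%, against 10.3%). These were Cd68 (-0.51 ± 0.14) and Itgam (-1.32 ± 0.23). Lyz2, also of that list, rose late in KO cells (0.66 ± 0.20). The mean of 4 neural markers ran from -0.17 to 0.00 at 0 h and 0.18 to 0.64 late in KO arrays. In WT arrays it ran from -0.60 to 0.50 and -0.19 to 0.18. Of these 4, 0 were called late in either genotype. The part of such shifts in the results below was not tested. Image numbers in the labels run nearly in order of genotype and time, so an effect of that order cannot be told apart from either.

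Late in the series, more members fell than rose in KO cells. Of 84 members, 1 rose and 11 fell (14.3%), where 3.86% of all genes rose, 6.8% fell and 10.7% were called in either direction. The median difference of late from 0 h arrays was -0.16 over the members and -0.02 over all genes, and 56 members lay below 0. The 11 that fell were the E1 Uba3, the E2s Ube2l3, Ube2q1 and Ube2v1, the cullin Cul7, and the USPs Usp4, Usp5, Usp10, Usp11, Usp22 and Usp46. The one that rose was the OTU deubiquitinase Otud1. The split of 1 rise and 11 falls was 2 and 6 without centring, 4 and 12 with quantile normalization and 4 and 11 with arrays scaled to one width. The count of 12 fell to 6 without KO 0 h replicate 1, to 7 without the KO 6 h array, and to 4 (1 rise, 3 falls) without both the KO 6 h and 8 h arrays, a setting chosen after seeing the data.

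In WT cells, 2 members rose late and 6 fell (9.52%). Among all genes, 3.6% rose, 3.67% fell and 7.27% were called in either direction, so the share of members was close to the background. The median was -0.09 over the members and -0.02 over all genes. Usp32 and Otud1 rose, and Ube2d-ps, Ube2r2, Ube2v2, Usp9x, Usp10 and Usp46 fell. Quantile normalization gave 1 rise and 2 falls, as did scaling of array width, and no centring gave 1 rise and 4 falls. The 8 calls became 1 without WT 0 h replicate 2, 4 without WT 0 h replicate 3, 5 without WT 4 h, 4 without WT 6 h, 2 without WT 8 h and 0 when only the compared arrays were fitted.

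Both late comparisons called 3 members, Usp46, Otud1 and Usp10, which is 37.5% of the WT calls and 25% of the KO calls. For all genes these shares were 48.8% and 33.3%. The 2 differences share no array, but the spread behind both sets of calls was estimated from all 20 arrays.

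Uba3, the catalytic subunit of the E1 that activates NEDD8, was the one activating enzyme on the list. In KO cells it stood at 1.21, 1.00 and 0.96 on the 0 h arrays, at 0.66, 0.88 and 0.77 at 0.5, 1 and 2 h, and at 0.58, 0.69, 0.27 and 0.08 at 3, 4, 6 and 8 h. Every late array lay below the 0 h arrays, and the 6 h and 8 h arrays were the lowest. The late fall was -0.65 ± 0.18 (1.56-fold, n = 4 against 3, limma adjusted p = 0.03), with 5 probes between -0.90 and -0.28. In WT cells the difference was -0.45 ± 0.18 (adjusted p = 0.138). The KO call was lost without any 1 of the 3 KO 0 h arrays, KO 6 h or KO 8 h (adjusted p from 0.0594 to 0.136).

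Ube2l3, an E2 that works with HECT and RBR ligases such as parkin, had 9 probes, the most of any member that fell. Its KO values were 1.46, 1.00 and 1.01 at 0 h, 1.43, 0.84 and 0.80 early and 0.33, 0.52, 0.24 and 0.16 late. The late KO arrays lay below all others of that genotype, while the WT values stayed between 0.90 and 1.55 on all 10 arrays. The late KO fall was -0.84 ± 0.19 (1.79-fold, limma adjusted p = 0.00795), and each probe fell, by differences of -1.09 to -0.68. This call was lost without KO 0 h replicate 1 (adjusted p = 0.0621), with 1 probe per gene (0.0933) and without both KO 6 h and 8 h (0.12). The WT difference was -0.29 ± 0.19 (adjusted p = 0.362), and the difference between the genotypes' responses, 0.55 ± 0.27, had an adjusted p of 0.575.

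Ube2v1 and Ube2v2 are E2 variants without a catalytic cysteine that pair with Ube2n to build lysine-63 chains, and their sequences are close enough to share signal. Ube2v1 in KO cells stood at 0.46, 0.58 and 0.47 at 0 h and at -0.27, -0.51, -0.82 and -0.52 late, with no overlap. Its late fall of -1.03 ± 0.26 (limma adjusted p = 0.0168) rested on 2 probes that disagreed (-1.94 and -0.12), and with 1 probe per gene the adjusted p was 0.725. It was also lost without KO 0 h replicate 1, KO 0 h replicate 2 or KO 6 h (0.0529 to 0.0586). In WT cells Ube2v1 was at -0.29, 0.33 and 0.17 at 0 h and at 0.50, 0.07, 0.52 and 0.60 late, so the groups overlapped.

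Ube2v2 fell late in WT cells, from 1.05, 1.07 and 0.84 to 0.26, 0.46, 0.24 and 0.39. All 4 late arrays lay below the 0 h arrays. The difference was -0.65 ± 0.17 (limma adjusted p = 0.0311), and in KO cells it was -0.45 ± 0.17 (adjusted p = 0.107). The WT call was lost without WT 0 h replicate 1 or 2, WT 3 h, WT 6 h or WT 8 h (0.0522 to 0.0821). It was also lost without centring, with quantile normalization, with scaled array width, with 1 probe per gene and with only the compared arrays. Over all settings the limma adjusted p reached 0.561, and its 5 probes ran from -0.95 to -0.22 in WT cells.

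Further E2 entries passed late in 1 genotype each, and all of these calls were lost with some single arrays left out. Ube2r2, an E2 of SCF ligases, fell in WT cells by -0.54 ± 0.16 (limma adjusted p = 0.0461), a call lost without WT 0 h replicate 1 or 2, WT 4 h, WT 6 h or WT 8 h (0.0881 to 0.138). Ube2d-ps fell in WT cells by -1.05 ± 0.26 (adjusted p = 0.0234, 1 probe), lost without WT 0 h replicate 2 or 3 or WT 8 h (0.0632 to 0.0639), and its probe can share signal with the Ube2d genes. Ube2q1 fell in KO cells by -0.43 ± 0.13 (adjusted p = 0.0455), lost without any 1 of the 7 arrays compared (0.0549 to 0.146).

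**Figure D1:**
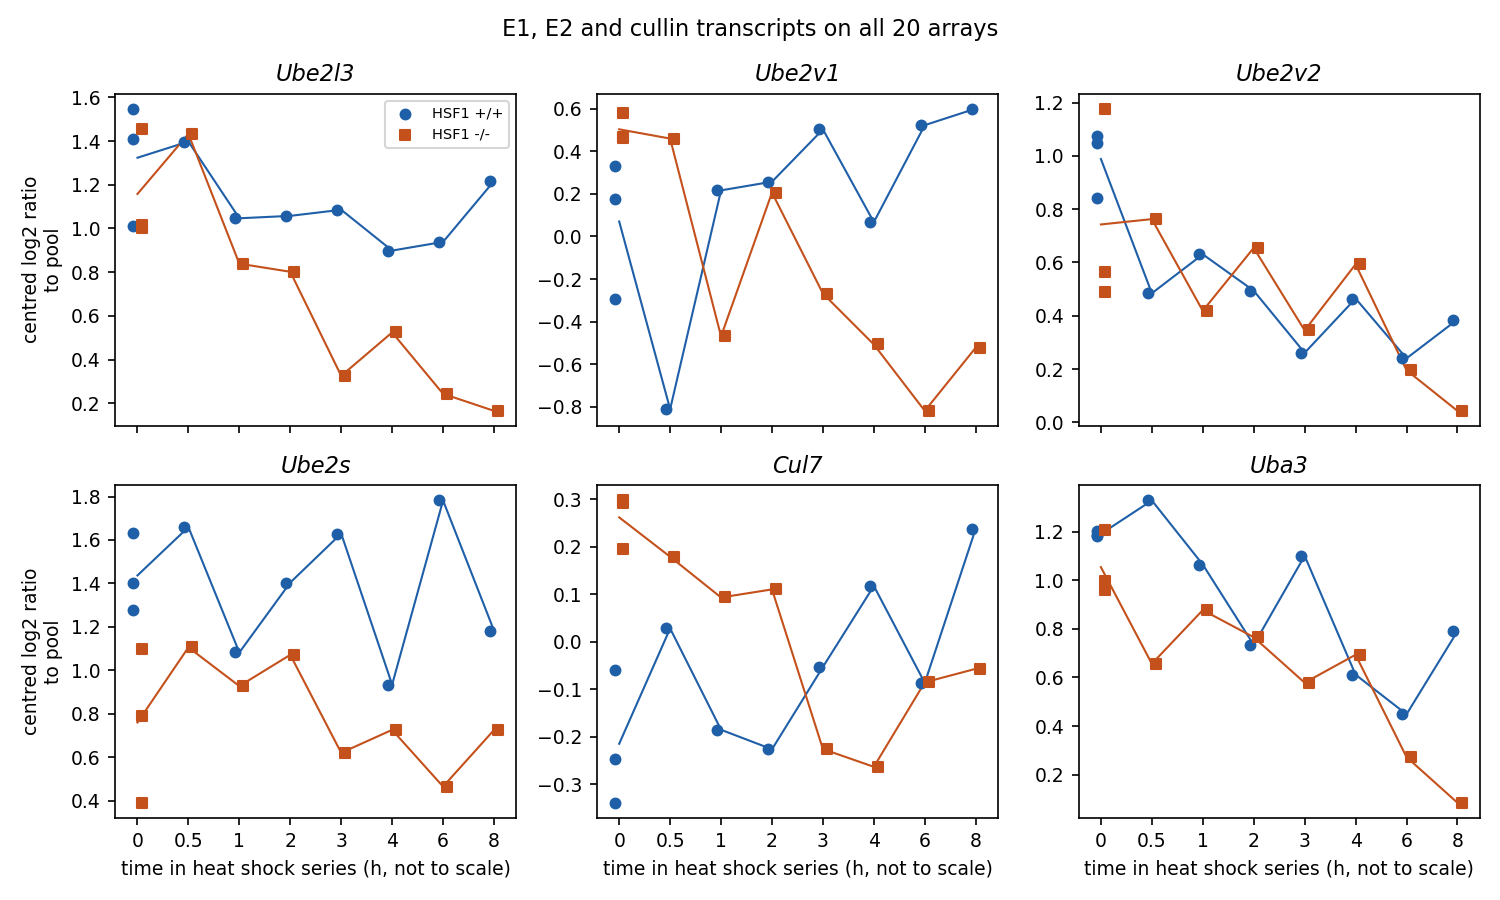
Centred log2 ratio to the pool (vertical axis) against time in the heat shock series (h, horizontal axis, not to scale) for 4 E2 genes, Cul7 and Uba3 on all 20 arrays; lines join the mean of the 3 arrays at 0 h with the single later arrays. Ube2l3 in KO cells reaches 0.16 at 8 h, while WT cells stand at 1.22, and Ube2s is higher in WT cells at each of the 7 heating times.

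Among the 8 cullins, Cul7 was the one that passed in any comparison. Cul7 is the scaffold of a ligase with the F-box protein Fbxw8. Its KO values were 0.29, 0.19 and 0.30 at 0 h, 0.18, 0.09 and 0.11 early and -0.23, -0.26, -0.09 and -0.06 late, against -0.06, -0.34 and -0.25 in WT cells at 0 h. KO cells were the higher ones before heat (0.48 ± 0.14, limma adjusted p = 0.042) and then fell (-0.42 ± 0.13, adjusted p = 0.0413). Both differences use the same KO 0 h arrays. In heated arrays the genotypes differed by -0.01 ± 0.09 (adjusted p = 0.964). The late call was lost without any 1 of its 7 arrays (0.06 to 0.132). The 0 h call was lost without any 1 of its arrays except WT 0 h replicate 1 (0.0754 to 0.125). Both were lost with 1 probe per gene and with only the compared arrays fitted. Over all settings the limma adjusted p reached 0.467 late and 0.61 at 0 h.

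Usp46, a deubiquitinase activated by the partner Wdr48, gave the smallest p of any member in the late WT comparison. Its WT values were 0.61, 0.78 and 0.22 at 0 h, -0.20, 0.04 and 0.01 early and -0.43, -0.34, -0.28 and -0.41 late. In KO cells they were 0.82, 0.74 and 0.58 at 0 h, 0.83, 0.49 and 0.34 early and -0.42, 0.06, -0.05 and -0.08 late. Every heated WT array lay below the WT 0 h arrays, and in KO cells the 4 late arrays lay below all the others. The late fall was -0.90 ± 0.16 in WT cells (1.86-fold, limma adjusted p = 0.00483) and -0.84 ± 0.16 in KO cells (1.79-fold, adjusted p = 0.00348). The 2 falls differed by -0.06 ± 0.23 (adjusted p = 0.969). Both calls held with any 1 array left out, and the WT call was lost when only the compared arrays were fitted (0.0594).

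Otud1, an OTU deubiquitinase that prefers lysine-63 chains, rose in both genotypes. It stood at 0.14, -0.02 and -0.31 in WT cells at 0 h and at 1.25, 0.36, 0.67 and 1.17 late. KO cells went from 0.02, 0.03 and -0.19 to 0.97, 1.32, 0.90 and 0.87. All late arrays lay above the 0 h arrays of their genotype, and at 0.5 h both genotypes (-0.20 and 0.03) were still within the 0 h range. The rise was 0.93 ± 0.23 in WT cells (1.90-fold, limma adjusted p = 0.0245) and 1.06 ± 0.23 in KO cells (2.09-fold, adjusted p = 0.00726). The KO call held under every setting tried, though with 1 probe the setting of probes per gene could hardly change it. The WT call was lost without WT 0 h replicate 2 or 3, WT 3 h or WT 8 h (0.0515 to 0.0827).

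Usp10, which deubiquitinates p53 and binds the stress granule protein G3BP, was lower late in both genotypes and lower in KO than in WT cells. WT values were 0.89, 1.07 and 1.17 at 0 h, 0.88, 0.45 and 0.52 early and 0.53, 0.42, 0.57 and 0.45 late. KO values were 0.76, 0.35 and 0.32 at 0 h, 0.34, 0.39 and 0.48 early and -0.13, 0.04, 0.04 and -0.06 late. The KO arrays lay below the WT arrays at 0 h and at each of the 7 heating times. The late fall was -0.55 ± 0.14 in WT cells (limma adjusted p = 0.0269) and -0.50 ± 0.14 in KO cells (adjusted p = 0.0289). The WT call was lost without WT 0 h replicate 2 or 3, WT 4 h or WT 8 h (0.0605 to 0.0827), and the KO call without KO 0 h replicate 1, KO 3 h, KO 6 h or KO 8 h (0.0524 to 0.181). Its 3 probes ranged from -0.99 to -0.13 in WT and from -0.94 to -0.11 in KO cells, and with 1 probe per gene both late calls were lost. The probe that fell least late had the largest genotype difference, -1.07 at 0 h and -0.86 in heated arrays. The late falls and the genotype difference thus rest mostly on different probes.

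Usp11, a deubiquitinase with roles in DNA repair, had the lowest adjusted p of any member. In KO cells it stood at 1.42, 1.03 and 1.55 at 0 h, 0.70, 0.20 and 0.47 early and 0.30, 0.34, 0.04 and 0.01 late. In WT cells it stood at 0.15, 0.10 and 0.33 at 0 h, -0.14, 0.30 and 0.12 early and -0.09, -0.14, -0.42 and -0.01 late. The 3 unheated KO arrays were thus above all 17 others. KO cells were higher before heat by 1.14 ± 0.18 (2.21-fold, limma adjusted p = 0.000956) and fell late by -1.16 ± 0.17 (2.24-fold, adjusted p = 0.000709). These differences share the KO 0 h arrays, so they are not separate evidence. Both calls held with any 1 array left out, and the 0 h call was lost with only the compared arrays fitted (0.0575). Over the heated arrays, which use no 0 h value, KO cells differed by 0.35 ± 0.12 (adjusted p = 0.079) and were higher at 6 of 7 times.

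Usp4 and Usp5 fell late in KO cells. Usp5 takes apart free ubiquitin chains, and Usp4 acts in transforming growth factor beta signalling and splicing. Usp5 stood at 0.62, 0.53 and 0.86 in KO cells at 0 h, 0.41, 0.35 and -0.04 early and 0.02, 0.09, -0.23 and -0.33 late. Its WT values ran from 0.05 to 0.35 at 0 h and from -0.10 to 0.33 late, so they overlapped. The KO fall was -0.78 ± 0.16 (1.72-fold, limma adjusted p = 0.00477), the WT difference was -0.07 ± 0.16 (adjusted p = 0.811), and the responses differed by 0.71 ± 0.23 (adjusted p = 0.42).

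Usp4 stood at 0.98, 0.55 and 1.14 in KO cells at 0 h and at 0.09, 0.11, -0.36 and -0.33 late, a fall of -1.01 ± 0.22 (2.02-fold, limma adjusted p = 0.00634). WT cells went from 0.49, 0.33 and 0.70 to -0.04, -0.22, -0.26 and -0.29, a difference of -0.71 ± 0.22 (adjusted p = 0.0557). In both genotypes the late arrays lay below the 0 h arrays. The KO calls of Usp4 and Usp5 held with any 1 array left out and were lost without both KO 6 h and 8 h (0.129 and 0.105).

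Usp9x, a large X-linked deubiquitinase that stabilizes Mcl1, fell late in WT cells from 1.09, 1.34 and 1.39 to 0.52, 0.59, 0.27 and 0.73. KO cells went from 1.30, 1.28 and 1.07 to 0.34, 1.06, 0.61 and 0.64, with all late arrays below the 0 h arrays in both genotypes. The difference was -0.75 ± 0.17 in WT cells (limma adjusted p = 0.0175) and -0.55 ± 0.17 in KO cells (adjusted p = 0.0502). The WT call was lost without WT 0 h replicate 2 or 3 or WT 6 h (0.0508 to 0.0523). It was also lost with quantile normalization, with scaled array width and with only the compared arrays. Its 6 probes ran from -1.50 to -0.03 in WT cells.

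The remaining USP calls were less stable. Usp32, a membrane-bound deubiquitinase, rose late in WT cells by 0.66 ± 0.20 (limma adjusted p = 0.0495), lost without any 1 of the 7 arrays except WT 3 h (0.0764 to 0.139). Usp22, the deubiquitinase of the SAGA complex, fell late in KO cells by -1.02 ± 0.31 (adjusted p = 0.0457), but its KO values of 1.02, 0.10 and 0.63 at 0 h overlapped those of -0.46, -1.61, 0.23 and 0.09 late. That call was lost without KO 0 h replicate 1 or 3, KO 3 h or KO 4 h (0.0742 to 0.221). It was also lost without centring, with quantile normalization, with scaled array width and with only the compared arrays. The related Usp27x can share the signal of Usp22.

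Usp4, Usp5, Usp11, Usp22, Usp46 and Otud1 had 1 probe each, so no second probe checked them.

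**Figure D2:**
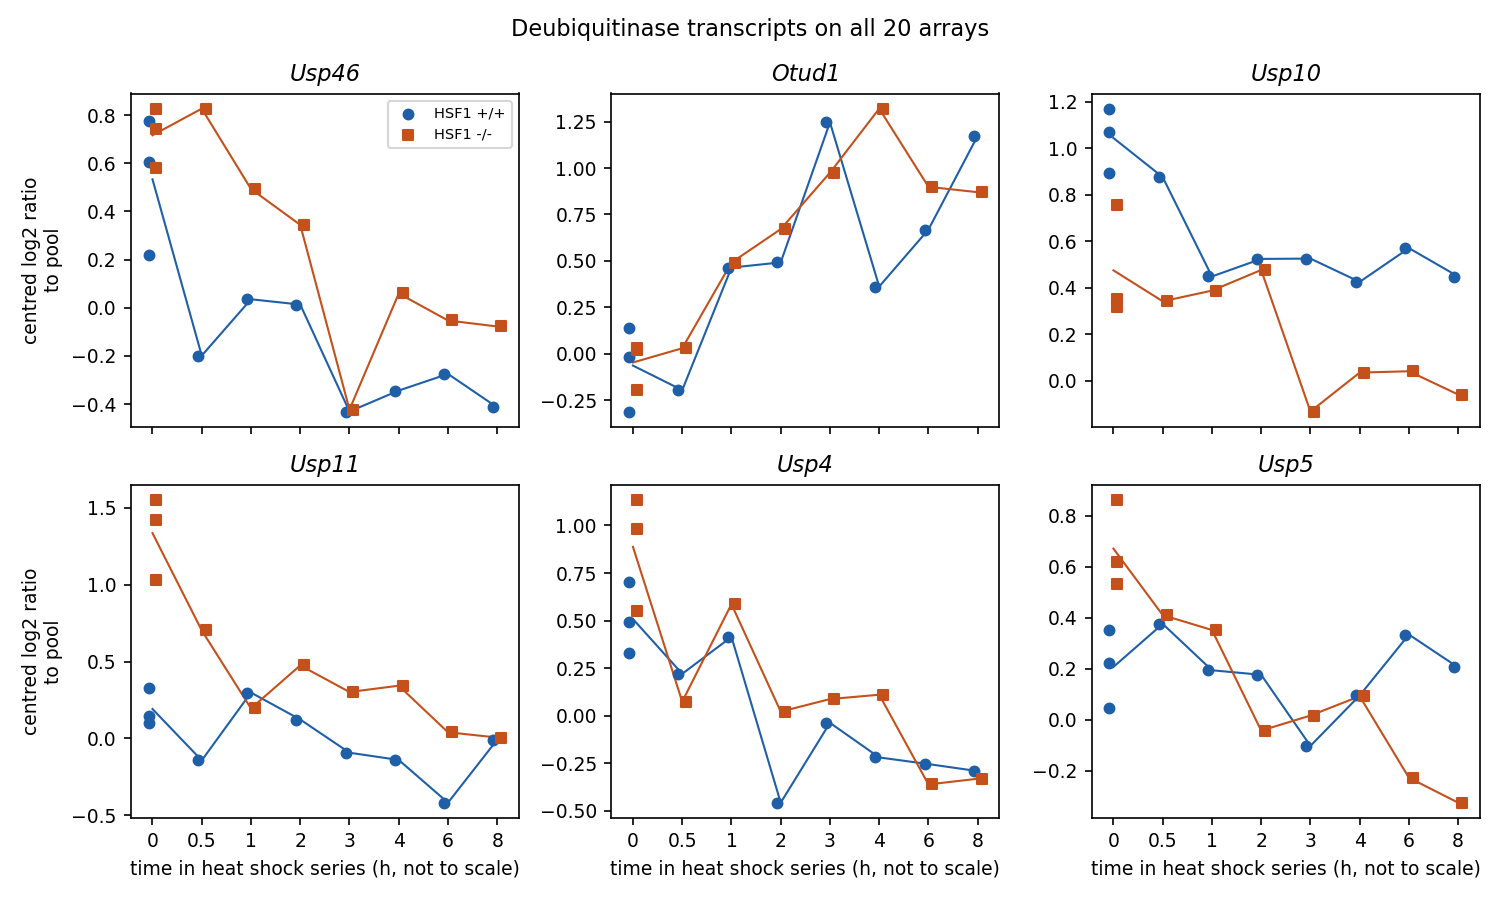
Centred log2 ratio to the pool (vertical axis) against time in the heat shock series (h, horizontal axis, not to scale) for 6 deubiquitinases on all 20 arrays; lines join the mean of the 3 arrays at 0 h with the single later arrays. Usp46 falls and Otud1 rises in both genotypes, while the 3 unheated KO arrays of Usp11, between 1.03 and 1.55, stand above all others.

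**Figure D3:**
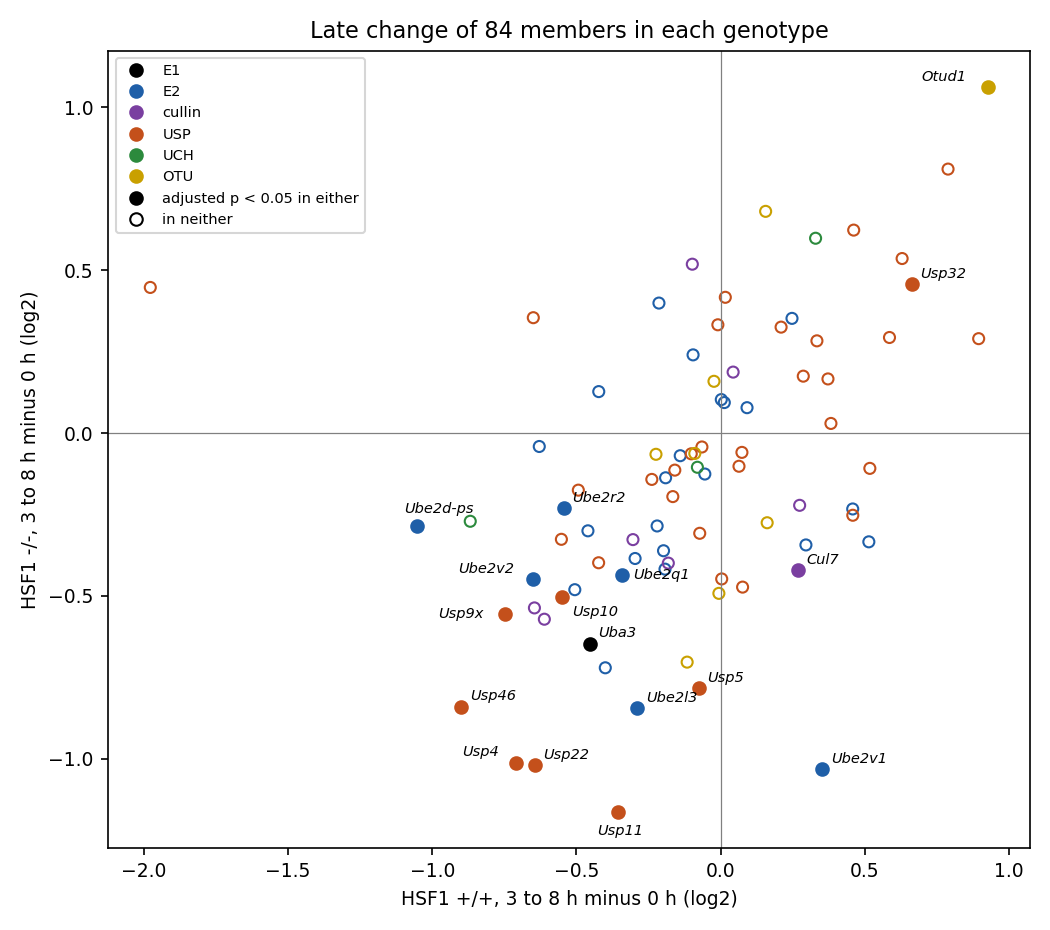
Late minus 0 h difference (log2) in HSF1 +/+ cells (horizontal axis) against that in HSF1 -/- cells (vertical axis) for 84 members, coloured by class; filled points passed an adjusted p of 0.05 in at least one genotype. Usp46 (-0.90 and -0.84) lies at the lower left, Otud1 (0.93 and 1.06) at the upper right, and Ube2v1 (0.35 and -1.03) at the lower right.

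The UCH family had 3 measured members and none passed in any comparison (0 of 3). Uchl5, a deubiquitinase of the proteasome, came nearest, with a late KO difference of 0.60 ± 0.19 (limma adjusted p = 0.0535) over 3 probes from -0.19 to 2.04. Uchl1, the member with the 3-unit motif, differed late by -0.87 ± 0.61 in WT cells (adjusted p = 0.402) and -0.27 ± 0.61 in KO cells (adjusted p = 0.836). Its WT values were widely spread, from -1.33 to -0.20 at 0 h and from -3.32 to -0.36 late.

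Early in the series no member passed. In WT cells 0 of 84 were called by limma, where 0.00941% of all genes were higher, 0.0282% lower and 0.0376% called in either direction. Of the members, 12 had an unadjusted p under 0.05, where 11.3% of all genes did. The smallest unadjusted p was that of Usp46 (-0.58 ± 0.17, adjusted p = 0.273), and leaving out WT 0 h replicate 1 gave 1 call, a rise of Usp20 by 2.24 (adjusted p = 0.00767). That fit sets the early arrays against WT 0 h replicate 2 alone (-2.49), because replicate 3 had no value. With all arrays Usp20 differed by 1.07 ± 0.45 (adjusted p = 0.389), and it was named after its values were seen. In KO cells 0 of 84 were called (0% of all genes) and 4 had an unadjusted p under 0.05, against 7.46% of all genes. Usp11 had the smallest (-0.88 ± 0.18, adjusted p = 0.268).

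The difference between the genotypes' responses was tested directly, as the WT minus the KO change from 0 h. For the late response limma called 0 of 84 members, where 0.0753% of all genes were higher, 0.0188% lower and 0.0941% called in either direction. Of the members, 7 had an unadjusted p under 0.05, against 8.72% of all genes. The smallest were those of Cul7 (0.69 ± 0.18, adjusted p = 0.286), Ube2v1 (1.38 ± 0.37, adjusted p = 0.286), Usp11 (0.81 ± 0.24, adjusted p = 0.372) and Usp5 (0.71 ± 0.23). In each of these 4 the KO change lay below the WT change. For the early response 0 of 84 were called (0% of all genes), and 3 had an unadjusted p under 0.05, against 8.37% of all genes. Thus no member was shown to respond differently in the 2 genotypes, although the calls in the 2 late comparisons were not the same ones.

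Before heat, KO cells differed from WT cells in 6 members (7.14%), 4 higher and 2 lower. Of all genes, 3.04% were higher, 3.6% lower and 6.64% called in either direction, so the members' share was near the background. Besides Usp11 and Cul7, the E2 Ube2e2 and the deubiquitinase Usp42 were higher, and Usp10 and Ube2g2 were lower. The split of 4 higher and 2 lower was 5 and 0 without centring, 4 and 0 with quantile normalization, and 1 and 0 with scaling of array width. The count was 2 without WT 0 h replicate 2, 3 without WT 0 h replicate 3, 2 without KO 0 h replicate 2, 2 without KO 0 h replicate 3 and 0 with only the compared arrays fitted.

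Ube2g2, an E2 of the degradation of misfolded proteins from the endoplasmic reticulum, stood at 0.68, 0.81 and 0.77 in WT cells and at -0.23, -0.11 and 0.14 in KO cells at 0 h. The groups were apart, and the difference was -0.82 ± 0.22 (1.76-fold, limma adjusted p = 0.0325), lost without any 1 of the 6 arrays (0.0504 to 0.106). Ube2e2 stood at -0.77, -1.36 and -1.61 in WT and at -0.61, -0.26 and -0.03 in KO cells. Its difference of 0.95 ± 0.25 (adjusted p = 0.0301) was lost without WT 0 h replicate 2 or 3 or KO 0 h replicate 2 or 3 (0.0741 to 0.131).

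Usp42, a deubiquitinase of p53, stood at -1.55, -1.58 and -1.29 in WT cells and at -0.63, -0.55 and -0.32 in KO cells at 0 h, with no overlap. Its difference was 0.97 ± 0.24 (1.96-fold, limma adjusted p = 0.021), with 3 probes from 0.37 to 2.17. The call was lost without WT 0 h replicate 1 or 2 or KO 0 h replicate 2 or 3 (0.0547 to 0.0915). It was also lost with scaled array width, 1 probe per gene, only probes with all values and only the compared arrays. For Usp10 the 0 h difference was -0.57 ± 0.15 (limma adjusted p = 0.03), with 3 probes from -1.067 to -0.255. That call was lost without WT 0 h replicate 2 or 3 or KO 0 h replicate 2 or 3 (0.065 to 0.13). Fits without centring, with quantile normalization, with scaled array width and with only the compared arrays lost it too.

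Over the 7 heating times KO cells differed in 8 members (9.52%), 2 higher and 6 lower. These differences use none of the 0 h arrays, but the spread behind the calls was estimated from all 20 arrays. Among all genes 4.19% were higher, 6.07% lower and 10.3% called in either direction. The lower members were the E2s Ube2e1, Ube2l3, Ube2n and Ube2s and the deubiquitinases Otud6b and Usp10, and the higher ones were Usp25 and Usp46. Quantile normalization gave 3 higher and 4 lower, and no centring 1 and 6. The count was 4 without WT 3 h, KO 6 h or KO 8 h and 5 without WT 0.5 h, WT 8 h, KO 0.5 h or KO 2 h. It was 2 without both 0.5 h arrays and 1 without both KO 6 h and 8 h arrays, settings chosen after seeing the data.

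Ube2s, which extends lysine-11 chains with the anaphase-promoting complex, ran from 0.93 to 1.78 over the heated WT arrays (median 1.40) and from 0.46 to 1.11 over the heated KO arrays (median 0.73). The ranges overlapped, but KO was the lower at each of the 7 times. The difference was -0.58 ± 0.15 (limma adjusted p = 0.0169), and 3 probes lay between -0.78 and -0.46. At 0 h, on arrays outside that difference, it was -0.68 ± 0.22 (limma adjusted p = 0.0827). There the WT arrays at 1.28, 1.40 and 1.63 lay above the KO arrays at 1.10, 0.39 and 0.79. The heated call held with any 1 array left out. It was lost with 1 probe per gene (0.0773), without both 0.5 h arrays (0.0609) and without both KO 6 h and 8 h (0.0817). Fitting same-time arrays as blocks lost it too.

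Ube2n, the catalytic E2 of lysine-63 chains, ran from 1.30 to 1.71 over heated WT arrays and from 0.86 to 1.49 over heated KO arrays, and KO was the lower at 6 of 7 times. Its difference of -0.36 ± 0.10 (limma adjusted p = 0.0374) was lost without WT 0.5 h, 2 h, 3 h, 6 h or 8 h or KO 0.5 h, 2 h, 3 h, 6 h or 8 h (0.0508 to 0.0883). Ube2l3 was lower by -0.47 ± 0.13 (adjusted p = 0.0277) and at 6 of 7 times, lost without WT 0.5 h, 3 h or 8 h or KO 1 h, 2 h, 6 h or 8 h (0.053 to 0.0693). Ube2e1, with 1 probe, was lower by -0.47 ± 0.14 (adjusted p = 0.0414) and at 5 of 7 times, lost without WT 0.5 h, 1 h, 3 h or 6 h or KO 0.5 h, 2 h, 6 h or 8 h (0.0503 to 0.101).

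Otud6b, an OTU deubiquitinase linked to protein synthesis, ran from 0.23 to 1.05 over heated WT arrays (median 0.71) and from -0.23 to 0.35 over heated KO arrays (median 0.12). KO was the lower at each of the 7 times. The difference was -0.60 ± 0.14 (limma adjusted p = 0.0103) and held with any 1 array left out, but its 5 probes ran from -2.02 to 0.18. With 1 probe per gene the direction reversed (0.18, adjusted p = 0.5), and the call was lost without both 0.5 h arrays (0.0501) or both KO 6 h and 8 h (0.0684). Usp10 was lower by -0.39 ± 0.10 (adjusted p = 0.017), a call that held with any 1 array left out and was lost without the same pairs (0.0772 and 0.0647).

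Usp25 ran from -0.35 to 0.25 over heated WT arrays (median 0.03) and from 0.21 to 0.69 over heated KO arrays (median 0.55), with KO the higher at each of the 7 times. Its difference of 0.49 ± 0.12 (limma adjusted p = 0.0153) came from 2 probes at 0.47 and 0.50 and held with any 1 array left out. It was lost with 1 probe per gene (0.0739) and without both 0.5 h arrays (0.0814). Usp46 was higher in KO cells by 0.40 ± 0.11 (adjusted p = 0.033) and at each of the 7 times, though at 3 h the values were -0.42 and -0.43. That call was lost without WT 0.5 h, 3 h or 8 h or KO 0.5 h, 1 h, 4 h, 6 h or 8 h (0.0504 to 0.0805).

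**Figure D4:**
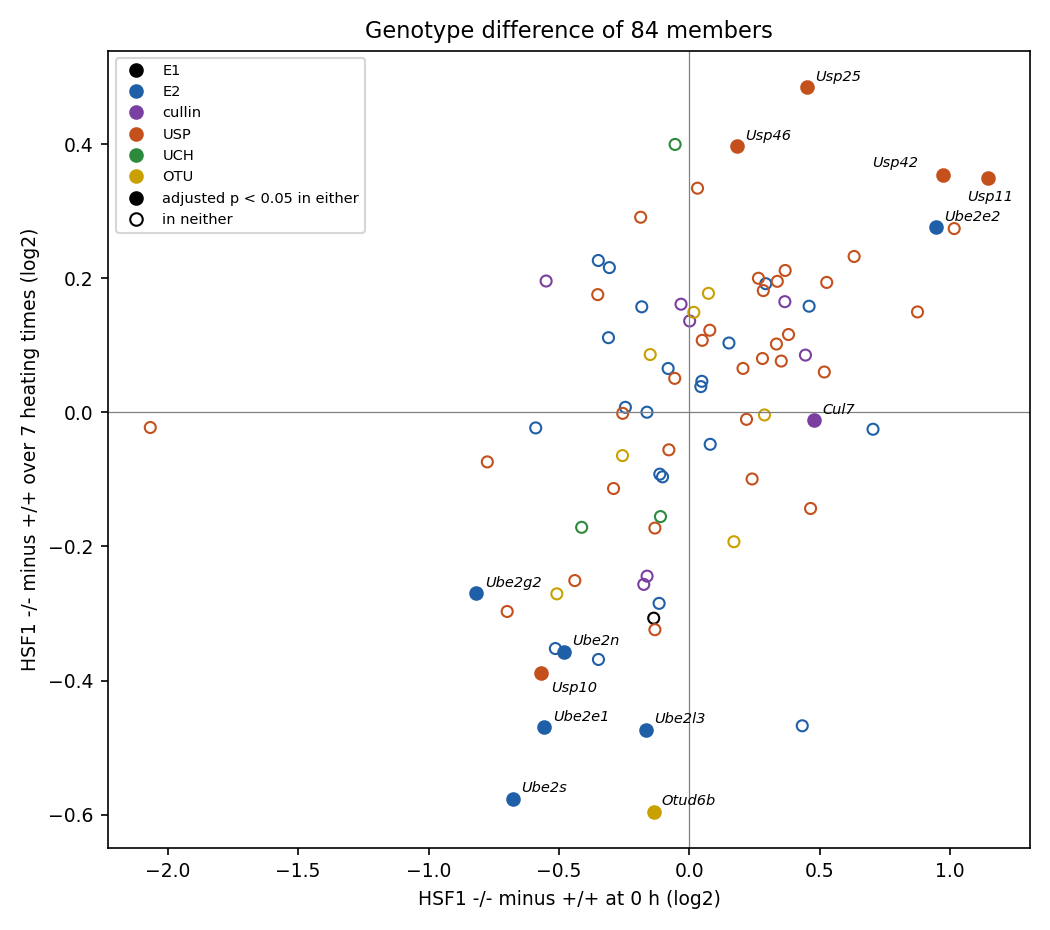
HSF1 -/- minus HSF1 +/+ difference (log2) at 0 h (horizontal axis) against that over the 7 heating times (vertical axis) for 84 members, coloured by class; filled points passed an adjusted p of 0.05 in at least one comparison. Usp11 (1.14 at 0 h) lies at the far right, and Ube2s (-0.58 when heated) and Otud6b (-0.60) are lowest.

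Over all comparisons 25 of 84 members (29.8%) were called at least once, against 23.2% of all genes, and 59 were called in none. Of 34 calls of a member in a comparison, 11 held with any 1 array left out. Of these, 3 also held under every other setting tried: the late KO changes of Usp11, Usp46 and Otud1. Each of these 3 genes has 1 probe with values on all 20 arrays. The settings on probes per gene and missing values could therefore hardly change them. Other settings also lost calls for which only left-out arrays are listed above, such as those of Uba3, Ube2r2, Ube2e2 and Ube2n.

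Other genes of the pathway were called at about the rate of all genes. Lists of ubiquitin genes, ubiquitin-like modifiers, E3 ligases, cullin partners, the COP9 signalosome, other deubiquitinases and p97 with its shuttle factors had 214 measured genes. Late in KO cells 5 of these rose and 15 fell (9.35%, against 10.7% of all genes), and in WT cells 6 rose and 11 fell (7.94%, against 7.27%). The medians, -0.16 and -0.13, stood beside -0.02 for all genes in both. The 5 that rose late in KO cells were the E3 ligases Birc6, Traf6 and Arih2 and the listed deubiquitinases Mysm1 and Alg13. Of 15 other deubiquitinases, 2 thus rose and 0 fell (13.3%, against 10.7% of all genes). Mysm1 rose by 1.07 ± 0.20 (limma adjusted p = 0.00367) and Alg13 by 0.90 ± 0.25 (limma adjusted p = 0.0293). Of 62 cullin partners, 7 fell and 0 rose late in KO cells (11.3%, where 6.8% of all genes fell and 3.86% rose). Among those that fell were the SCF adaptor Skp1 (-1.16 ± 0.21, limma adjusted p = 0.00201), the Cul4 adaptor Ddb1 (-0.99 ± 0.23) and the exchange factor Cand1 (-0.89 ± 0.17). Of 9 subunits of the COP9 signalosome, which takes NEDD8 off cullins, 2 fell and 0 rose (22.2%, against 10.7% of all genes called). They were Cops3 (-0.90 ± 0.21) and Cops7b (-0.87 ± 0.27). Of 27 genes listed as p97 and shuttle factors, 3 fell and 0 rose (11.1%, close to the 10.7% of all genes). The p97 ATPase itself, Vcp, fell by -0.63 ± 0.14 (limma adjusted p = 0.00777).

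In WT cells 2 cullin partners rose late and 3 fell (8.06%, against 7.27% of all genes). The muscle-atrophy F-box gene Fbxo32 rose by 1.60 ± 0.30 (limma adjusted p = 0.00554), and the F-box gene Fbxo5, an inhibitor of the anaphase-promoting complex, fell by -0.92 ± 0.16 (adjusted p = 0.00378). Fbxo5 was the one listed gene whose late responses differed between the genotypes (-1.24 ± 0.22, adjusted p = 0.0438). Zfand2a, a proteasome-binding stress protein, rose in WT cells by 1.29 ± 0.25 (adjusted p = 0.00618) and was lower in heated KO than WT cells (-0.59 ± 0.17, adjusted p = 0.0363). Fau, which encodes a ubiquitin-like protein fused to a ribosomal protein, was lower in KO cells at 0 h (-1.02 ± 0.17, adjusted p = 0.00106). These listed genes were not refitted with arrays left out.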

How the data were processed

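The deposited table holds log2 ratios (base not stated) of sample over pool for 42624 probes on 20 two-colour arrays, per the labels. The largest absolute value, 10.2, exceeds 4.82, the most that log10 of 16-bit signals allows. Natural logarithms remain possible, and folds would then be larger. Background correction, spot filtering and normalization by the authors are not given in the sources used here, and 3.28% of values were missing. Hspa1a rose in heated WT cells with ratios read as Cy5 over Cy3.

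The median of each array was subtracted. A probe needed at least 2 values in each of 6 groups, which left 40453 probes. Genes were named from the platform table, using probes with 1 gene (21701 probes) and leaving out 1124 with several. A gene's value is the mean of its probes, each relative to its own mean. All 85 members were in RefSeq, with 237 probes, 230 of them used. Near-identical genes can share signal.

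With limma 3.58.1 (R 4.3.3), 1 model of 6 groups was fitted to all 20 arrays (lmFit, eBayes, 14 residual and 3.36 prior degrees of freedom), with 8 two-sided contrasts and Benjamini-Hochberg adjustment over 10625 genes. Heated arrays were compared by weighting the early and late genotype differences by their numbers of times. On data simulated for the late KO comparison over 10625 genes, the model recovered 42% of genes shifted by a log2 of 1 and 12% of those shifted by 0.5.

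The members and lists were chosen with earlier results of these data known. Named were all members past the threshold in any contrast and, in each class, the 4 of smallest p, with examples drawn from these. Alternatives covered centring, quantile normalization, array width, probes per gene, missing values, the arrays fitted, a replicate block and each array left out. Same-numbered or same-time arrays of the 2 genotypes did not deviate together (correlations -0.02 to 0.06), so numbers were not taken to pair them.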

Additional observations from a re-analysis of the deposited data

Results flagged for a closer look

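Of 65 gene and window groups of 4 arrays examined, 1 held an array far from the others. Ube2r2 stood at 0.47 on the KO 3 h array, while the 4, 6 and 8 h arrays lay between 0.25 and 0.26, a gap of 0.924 of the whole range. Chance flags about 1 in 20 such groups.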

How the results depend on the processing

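Counts of members called depended on the settings. The count at 0 h (6) was 1 with scaling of array width, 3 with 1 probe per gene, 0 with only the compared arrays and 3 with a replicate block. Over heated arrays (8) it was 4 with 1 probe per gene, 3 with the replicate block, 2 without both 0.5 h arrays and 1 without KO 6 h and 8 h. The late WT count (8) was 5 without centring, 3 with quantile normalization, 3 with width scaling and 0 with only the compared arrays, and the late KO count (12) was 4 without KO 6 h and 8 h. With each array left out in turn, counts ran from 2 to 6 at 0 h, 4 to 8 heated, 0 to 1 early WT, 1 to 8 late WT and 6 to 11 late KO, and stayed at 0 early KO and in both response differences. The replicate block left 0 calls in both response differences, and heated calls it lost included Ube2s (adjusted p = 0.0546) and Usp10 (0.0839). The cause of these changes was not tested. In heated arrays Otud6b, whose 5 probes disagree, reversed to 0.18 with 1 probe per gene.

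At 0 h the median of the members was -0.04 as reported and 0.07 with arrays not centred, which shifted the all-gene median from 0.05 to 0.16. For early WT arrays the median of all genes moved from 0.00 to 0.19, and for the early response difference from 0.05 to 0.31. Late medians of the members stayed below 0 under every scaling (-0.09 to -0.03 in WT, -0.17 to -0.09 in KO cells). Signal over background was not examined.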

Other observations

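Of 77 E3 ligases measured outside the members, 3 rose and 4 fell late in WT cells (9.09%, against 7.27% of all genes), and 3 rose and 3 fell late in KO cells (7.79%, against 10.7%). Birc6, a large inhibitor of apoptosis with E2 and E3 activity, rose by 1.19 ± 0.23 in WT cells (limma adjusted p = 0.00618) and 1.18 ± 0.23 in KO cells (adjusted p = 0.00357). Mdm2, the ligase of p53, rose in WT cells by 0.72 ± 0.17 (adjusted p = 0.0206). Rad18, which ubiquitinates PCNA in DNA repair, fell in WT cells by -1.25 ± 0.23 (adjusted p = 0.0054). The anaphase-promoting complex subunit Anapc5 fell in both (-0.78 ± 0.22 and -0.76 ± 0.22), and Anapc2 (-0.75 ± 0.20) and Anapc7 (-0.99 ± 0.25) fell in KO cells.

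Usp13 had the largest differences of any member without a call. Its single probe differed by -2.07 ± 0.83 between the genotypes at 0 h (limma adjusted p = 0.158) and by -1.98 ± 0.78 late in WT cells (limma adjusted p = 0.133). Both differences share WT 0 h replicates 2 and 3, which stood at -0.9 and 0.77, and replicate 1 had no value. Usp13 was named after its values were seen.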
